A study of Homo sapiens with 3 samples.

Results

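The 39 HOX genes of the human genome were examined in KYSE140, an established human cell line of esophageal squamous carcinoma, with and without knockdown of DLX5. Members were all genes of the deposited table whose symbol is HOX, a cluster letter from A to D and a number, without regard to their values. They numbered 39 of 19266 genes in the table: 11 of the HOXA cluster, 10 of HOXB, 9 of HOXC and 9 of HOXD. HOXB1 carried no value in any sample, which left 38. The labels give 3 samples: a negative control, cells transfected with siRNA1 against DLX5 and cells transfected with siRNA2 against DLX5. All were KYSE140 cells grown in the same medium, and the labels name no further allele, agent or time, nor what the control received. The design text calls the profiles retinal and made in triplicate, whereas the sample labels name esophageal squamous cells and 3 samples, and 5 retinal markers summed to 3.22 to 3.77 FPKM per sample. For each sample the table holds 2 replicate columns in FPKM, a read density that corrects for the length of the transcript and for depth, and an SD below is the spread over these columns, which may be technical. Their mean was used as 1 value per sample, since nothing in the labels says that the columns came from separate cultures.

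HOX genes encode homeodomain transcription factors that pattern the body axis from head to tail. They lie in 4 clusters in which the order of the genes along the chromosome follows the order of their domains along the axis, so low numbers mark anterior and high numbers posterior genes. Genes of different clusters with the same number are paralogs and form paralog groups 1 to 13. HOX proteins bind DNA with PBX and MEIS cofactors, Polycomb complexes keep unused clusters silent, and KMT2A and its partners keep active ones on. DLX5, the knocked-down gene, encodes a homeodomain factor as well but lies outside the clusters.

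The targeted gene was lower in both samples labelled as knockdowns, at 13 FPKM in the control, 3.63 with siRNA1 and 3.25 with siRNA2 (log2 difference -1.66 ± 0.18, SE; limma adjusted p = 0.021). Of 7 squamous epithelial markers, KRT5 (3130 FPKM), KRT17 (3060), KRT6A (2740) and SFN (708) were the highest in the control. Among 6 glandular epithelial markers 4 carried a value: KRT8 read 886 FPKM and KRT18 404 in the control, VIL1 and MUC2 0.03 or below. The leukocyte markers with a value read 6.26 FPKM (CD68), 1.2 (PTPRC) and 0.14 (CD79A) in the control. Of 6 fibroblast markers, COL1A1 read 15.9 FPKM in the control and the other 5 at most 0.1 FPKM in any sample, and the 3 endothelial markers summed to 0.53 FPKM or less. Depth was estimated at 17050000 to 17900000 reads in each replicate column, judged by the steps between small FPKM values of short genes, of which 85.3% to 90.9% fell within 0.2 reads of a whole number. The HOX genes tested below had an estimated 67 to 3947 reads in a sample. These estimates stand behind the counting errors given, which cover counting only.

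Most of the HOX complement was transcribed in KYSE140. At least 1 FPKM in at least 1 sample was reached by 28 of the 38 genes with a value, and only these entered the gene test: 10 of HOXA, 5 of HOXB, 8 of HOXC and 5 of HOXD. Their median level in the control was 7.98 FPKM, beside 11.4 FPKM over all 12078 genes tested, and 21 of the 28 stood at 5 FPKM or more. By position, 4 of 7 genes with a value in groups 1 to 3 reached it, 11 of 15 in groups 4 to 8, and 13 of 16 in groups 9 to 13.

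**Figure D1:**
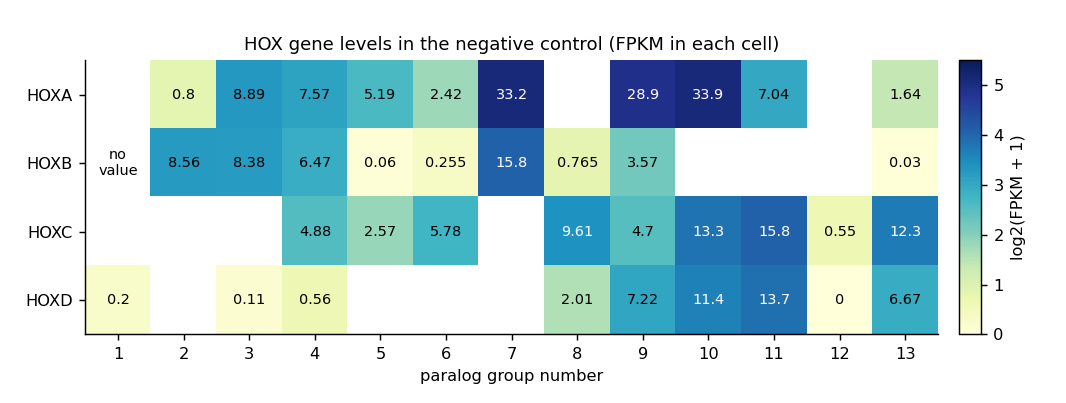
Level of each HOX gene in the negative control, with clusters in rows, paralog group numbers in columns, FPKM written in each cell and log2(FPKM + 1) as color; blank cells are groups that a cluster lacks or that are not reported. HOXA7, HOXA9 and HOXA10 are the darkest cells, at 28.9 to 33.9 FPKM, and the anterior HOXD genes are near 0.

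HOXA held the highest levels. HOXA10, a posterior gene known from uterine and limb patterning, read 33.9 ± 0.96 FPKM (SD) in the control, and HOXA7 read 33.2 ± 0.79; their replicate columns overlapped. HOXA9, best known as a driver of leukemia, followed at 28.9 ± 0.27 FPKM, below both, and the next gene, HOXB7, stood at 15.8 ± 0.13. HOXC11 (15.8 FPKM), HOXD11 (13.7), HOXC10 (13.3), HOXC13 (12.3) and HOXD10 (11.4) made up the rest of the 9 genes above 10 FPKM. Of 27 pairs of neighbors in this order, 11 had overlapping replicate columns and so did not differ beyond that spread. HOXA9 to HOXB7 was the widest step among the high genes.

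The clusters differed in which positions were read. In HOXA, 10 of 11 genes were tested, and HOXA13 at the posterior end read 1.64 FPKM. HOXB was patchy: HOXB2 (8.56 FPKM), HOXB3 (8.38) and HOXB4 (6.47) were followed by HOXB5 (0.06) and HOXB6 (0.255), then by HOXB7 at 15.8 beside HOXB8 at 0.765 and HOXB9 at 3.57. HOXC was read along its length from HOXC4 (4.88 FPKM) to HOXC13, with HOXC12 at 0.55. HOXD was read at its posterior end, from HOXD8 (2.01 FPKM) to HOXD13 (6.67), while HOXD1, HOXD3 and HOXD4 lay between 0.11 and 0.56 FPKM and HOXD12 was listed at 0 in the control. The 10 genes with a value that were not tested ranged from 0 to 0.8 FPKM over all samples, a range in which a few reads decide the value.

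Summed over all 38 genes, HOX transcripts came to 294 ± 3.74 FPKM in the control, 356 ± 0.13 with siRNA1 and 343 ± 11.2 with siRNA2. HOXA made up the largest part, with 139 FPKM in the control, 167 with siRNA1 and 164 with siRNA2. HOXC went from 69.5 FPKM to 87.1 and 91.9, and HOXB from 43.9 to 53.1 and 45.4. HOXD read 41.8 FPKM in the control, 48.4 with siRNA1 and 41.1 with siRNA2, so it was higher than the control with siRNA1 alone. As ratios to the control, the sums were 1.2 and 1.18 for HOXA, 1.21 and 1.03 for HOXB, 1.25 and 1.32 for HOXC, and 1.16 and 0.983 for HOXD, with siRNA1 and siRNA2 respectively. These are descriptions of 1 value per sample, with no test.

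**Figure D2:**
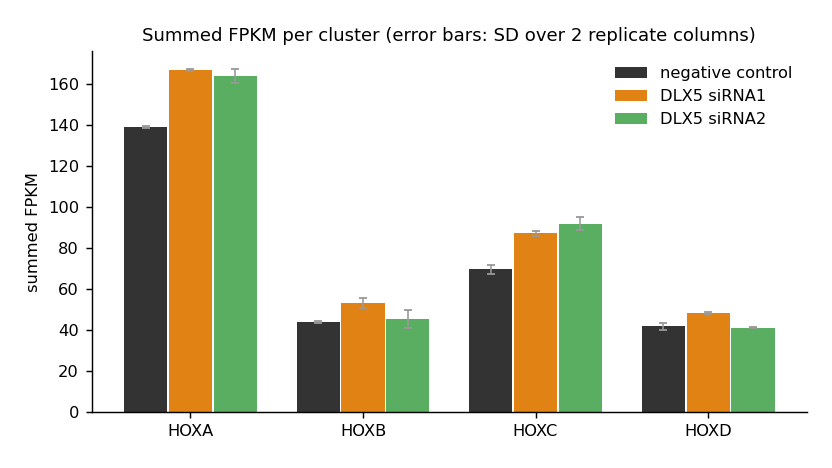
Summed FPKM of each HOX cluster in the negative control and with each DLX5 siRNA; bars are sums of the sample means and error bars the SD over the 2 replicate columns. HOXA and HOXC stand above the control with both siRNAs, HOXD with siRNA1 alone.

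Most of the gain lay in 3 genes. Without HOXA9, HOXC6 and HOXC10, chosen after their values were seen, the HOX sum was 247 ± 3.83 FPKM in the control, 259 ± 0.50 with siRNA1 and 253 ± 11.2 with siRNA2, and the last of these was within its spread of the control. HOXC without HOXC6 and HOXC10 stood at 50.4 ± 2.18 FPKM in the control, 45.7 ± 0.28 with siRNA1 and 49.1 ± 2.14 with siRNA2, so siRNA1 lay below the control by more than its SD and siRNA2 within it. HOXA without HOXA9 read 110.0 FPKM, then 112 and 117.

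To ask which HOX genes changed on knockdown, the gene test was limma with a trend on log2(FPKM + 1), fitted over 12078 genes with Benjamini-Hochberg adjustment, 1 control sample against 2 siRNA samples. Of 28 HOX genes tested, 1 passed at an adjusted p under 0.05: HOXC10, which was higher. Among all genes tested, 3.09% passed, 1.42% as higher and 1.67% as lower, so 1 of 28 (3.57%) is close to the background. At an unadjusted p under 0.05 in limma there were 4 of 28 HOX genes, HOXC10, HOXC6, HOXA9 and HOXC13. Over all genes there were 2359 of 12078, a larger share. The median log2 difference of the tested HOX genes was 0.04, beside 0.01 over all genes tested. The median size of the difference, regardless of sign, was 0.19 for HOX genes and 0.20 over all genes. With 1 residual degree of freedom per gene the test rests mostly on the trend of the spread over all genes. The gene's own part is the difference between the siRNA samples, and the 1 control is assumed to vary like them. In bulk RNA, fewer cells that transcribe a gene and less of its RNA per cell cannot be told apart.

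**Figure D3:**
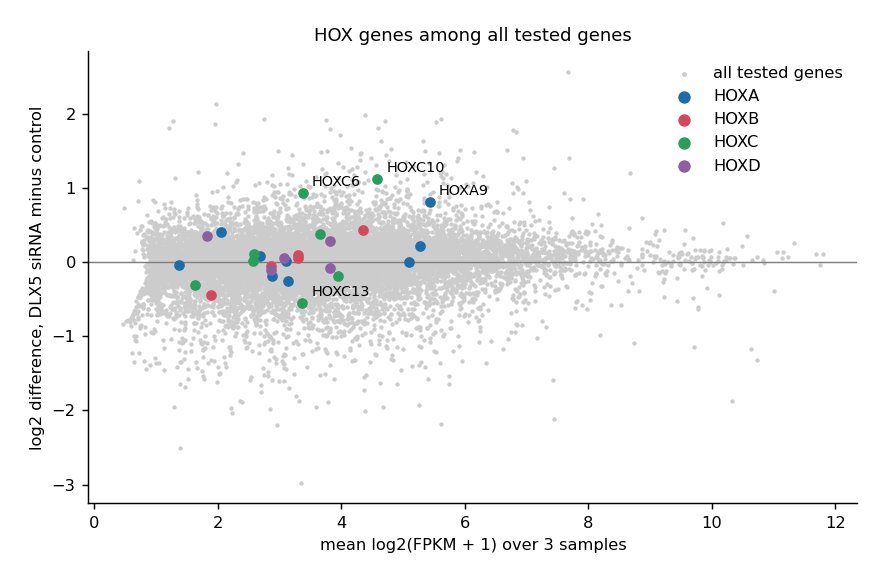
Each tested gene by its mean log2(FPKM + 1) over 3 samples (x axis) and its log2 difference, DLX5 siRNA minus control (y axis); grey points are all 12078 genes and colored points the 27 HOX genes shown. HOXC10, HOXC6 and HOXA9 lie at 0.80 to 1.12, HOXC13 at -0.55, and the other HOX genes are spread within the grey cloud around 0.

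HOXC10, a posterior gene active in hindlimb, lumbar spinal cord and adult fat and skin, rose with both siRNAs. It lies on chromosome 12 (54378946 to 54384063, plus strand, hg19; Entrez gene 3226). Its replicate columns read 13.74 and 12.86 FPKM in the control, 28.05 and 29.06 with siRNA1, and 30.51 and 32.98 with siRNA2. All 4 siRNA columns thus lay above both control columns. It was 2.15-fold higher with siRNA1 and 2.39-fold higher with siRNA2, and the log2 difference was 1.12 ± 0.16 (SE; limma adjusted p = 0.0297). An estimated 891 reads stood behind the control value, a counting error of 3.35%. HOXC10 no longer passed when genes of low FPKM were kept in (limma adjusted p = 0.32) or after quantile normalization (limma adjusted p = 0.0659), at log2 differences of 1.12 and 1.11. The authors' deposited table gives log2 fold changes of 1.1 with siRNA1 and 1.25 with siRNA2. In GENCODE v29, the antisense gene HOXC-AS3 shares 44 exonic bases with HOXC10, 2.27% of its exonic bases. How strand was treated is not stated in the labels or headers, so reads of the 2 genes cannot be told apart there.

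HOXC6 and HOXA9 moved by similar amounts but did not pass the test. HOXC6, a mid-cluster gene of thoracic and mammary patterning (chromosome 12, 54410636 to 54424607, plus strand, hg19), read 5.47 and 6.09 FPKM in the control. With siRNA1 its columns read 12.77 and 12.97 FPKM, and with siRNA2 11.56 and 10.59. The groups did not overlap, and the ratio to the control was 2.23 and 1.92. Its log2 difference was 0.93 ± 0.18 (SE; limma adjusted p = 0.0572), and with upper quartile scaling it passed the threshold (limma adjusted p = 0.0471). In the table the HOXC6 locus lies inside that of HOXC4 over 13972 bases, both start at the same base, and their GENCODE v29 coding transcripts share 454 stretches of 31 bases. That is 12.9% of the HOXC6 stretches and 20.3% of those of HOXC4, so the split of reads between the 2 genes is uncertain. HOXC4 itself read 4.88 FPKM in the control, 4.58 with siRNA1 and 5.37 with siRNA2.

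HOXA9 (chromosome 7, 27202057 to 27205149, minus strand, hg19) went from 28.9 ± 0.27 FPKM to 55.4 ± 1.48 with siRNA1 and 47.2 ± 1.08 with siRNA2. All siRNA columns lay above both control columns. The ratio to the control was 1.92 and 1.64, and the log2 difference was 0.80 ± 0.16 (SE; limma adjusted p = 0.0634). It was the most abundant HOX transcript in both knockdown samples, ahead of HOXA10, which it followed in the control. Its neighbors in the cluster differed less from the control. HOXA7 read 33.2, 35.5 and 31.1 FPKM and HOXA10 read 33.9, 35.8 and 43.6 in the control, with siRNA1 and with siRNA2. All siRNA columns of HOXA10 also lay above both control columns, while those of HOXA7 overlapped them. HOXA9 shares 1 stretch of 31 bases with HOXC5 and none with another HOX gene. HOXA7 overlaps the exons of the antisense gene HOXA-AS3 over 74.7% of its exonic bases, and HOXA10 those of HOXA10-AS over 19.3%, so both levels are uncertain without strand.

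The DNA upstream of these genes is shown to let the reader compare HOXA9, at 1.92-fold and 1.64-fold its control value, with its neighbor HOXA7, at 1.07-fold and 0.936-fold, and with HOXD10, which was higher with siRNA1 alone. Windows of 250 bases before the gene start were taken from RefSeq (GRCh38.p14, a build other than that of the table, matched by symbol), which held 27 windows for 20 of the 39 HOX genes. By symbol, none was listed for HOXC6, HOXC10 or HOXC13. The same window was listed for HOXC4 and for HOXC5, and it is counted for both. The windows were searched on both strands, so that each motif also counts as its reverse complement. The first motif was TAATT, the core that many homeodomain proteins of the DLX and HOX families bind. The second was the hexamer TATAAA of the TATA box. The third was TGATNNAT, a core of joint HOX and PBX sites. Capitals mark matches to the first and second motif.
HOXA9 (chr7:27165538-27165787, minus strand): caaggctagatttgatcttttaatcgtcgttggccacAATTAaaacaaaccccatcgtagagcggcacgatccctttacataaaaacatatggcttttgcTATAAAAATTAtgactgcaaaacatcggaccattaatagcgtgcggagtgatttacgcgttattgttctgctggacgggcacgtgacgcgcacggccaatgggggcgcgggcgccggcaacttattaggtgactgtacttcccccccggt
HOXA7 (chr7:27156676-27156925, minus strand): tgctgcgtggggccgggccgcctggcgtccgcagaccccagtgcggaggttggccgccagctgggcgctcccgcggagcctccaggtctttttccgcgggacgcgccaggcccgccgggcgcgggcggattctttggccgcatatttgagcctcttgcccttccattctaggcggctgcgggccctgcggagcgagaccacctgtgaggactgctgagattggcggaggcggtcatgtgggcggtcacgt
HOXD10 (chr2:176116528-176116777, plus strand): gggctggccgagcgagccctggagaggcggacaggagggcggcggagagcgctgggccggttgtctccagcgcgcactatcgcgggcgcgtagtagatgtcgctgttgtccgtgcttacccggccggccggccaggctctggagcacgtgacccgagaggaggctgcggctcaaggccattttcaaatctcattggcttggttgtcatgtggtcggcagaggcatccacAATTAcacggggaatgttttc

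The HOXA9 window held TAATT at 2 places, which begin 213 and 144 bases before the start, and TATAAA once, 150 bases before it, directly abutting the second match. HOXA7 held none of the 3 motifs, and 70.8% of its window was G or C against 48.8% for HOXA9. In the HOXD10 window TAATT occurred once, 21 bases before the start. Over all 35116 windows of the same length, 23.1% held TAATT, 10.7% TATAAA and 6.47% TGATNNAT, and of the 27 HOX windows 6, 5 and 3 did. HOXD11, with 2 TAATT matches, stood at 0.943-fold and 0.939-fold its control. HOXA3 has several windows, none of them shown, and only 1 of these held TAATT. The gene stood at 0.809-fold and 0.828-fold. HOXD3 and HOXD4 also held TAATT but were not in the gene test. The window listed for both HOXC4 and HOXC5 held none of the 3 motifs. HOXC6 starts at the same base as HOXC4 in the deposited table. Whether this window also lies before HOXC6 was not checked across the builds. HOXA10, the other neighbor of HOXA9, held no TAATT and stood at 1.06-fold and 1.29-fold. Both of its windows held TATAAA, at 150 and at 222 bases before the start. A match is a description of these letters, and no match says only that they are not in this window. A link between motifs and levels was not tested.

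HOXC13, a regulator of hair and nail keratin genes at the posterior end of its cluster, was the HOX gene with the largest difference downwards among those tested, but it did not pass. It read 12.3 ± 0.25 FPKM in the control, 7.89 ± 0.25 with siRNA1 and 8.29 ± 0.07 with siRNA2. All 4 siRNA columns lay below both control columns. The control was 1.56-fold and 1.49-fold above the knockdowns, and the log2 difference was -0.55 ± 0.17 (SE; limma adjusted p = 0.150). HOXC13-AS overlaps 7.1% of its exonic bases. HOXB9 read 3.57 FPKM in the control, 1.95 with siRNA1 and 2.85 with siRNA2, again with no overlap of siRNA and control columns, and a log2 difference of -0.44 (limma adjusted p = 0.341).

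**Figure D4:**
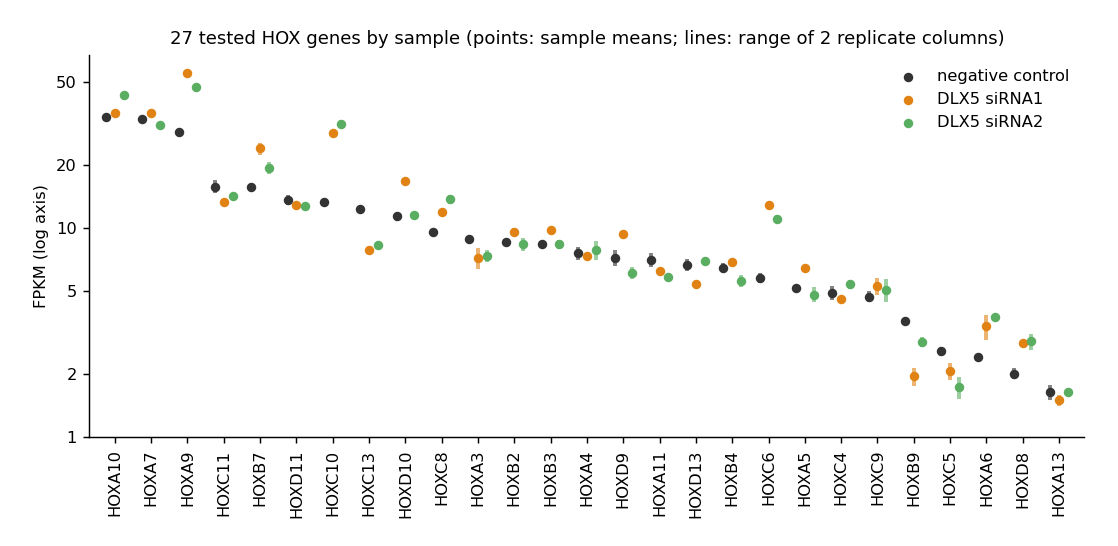
FPKM (log axis) of 27 tested HOX genes in the negative control and with each DLX5 siRNA, ordered by the control; points are sample means and lines the range of the 2 replicate columns. The siRNA points of HOXA9, HOXC10 and HOXC6 stand clear above the control, those of HOXC13 and HOXB9 below it.

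Sizes and signs were then counted over the tested genes. On the log2(FPKM + 1) scale, 3 of 28 HOX genes were at least 1.5-fold higher with both siRNAs (HOXA9, HOXC6 and HOXC10), beside 3.25% of all genes tested, and none was at least 1.5-fold lower, beside 4.6%. HOXC10 alone was at least 2-fold higher with both, beside 0.795% of all genes, and none was 2-fold lower, beside 1.22%. These fold limits were chosen after the values were seen. In sign, 10 of 28 were above the control with both siRNAs (35.7%, beside 41.3% of all genes) and 7 below (25.0%, beside 36%). The remaining 11 moved in opposite ways with the 2 siRNAs, against 22.5% of all genes. All 4 siRNA columns lay above both control columns for 8 HOX genes (28.6%, beside 31% of all genes) and below them for 6 (21.4%, beside 26.8%).

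With the 6 replicate columns as separate values, a limma fit whose spread is that within samples, 7 HOX genes were higher with both siRNAs and 2 lower at an adjusted p under 0.05. In that fit 21.8% of all genes tested were higher and 18.6% lower. The 7 were HOXC10, HOXC6, HOXA9, HOXB7, HOXA6, HOXC8 and HOXD8, and the 2 were HOXC13 and HOXB9. HOXB7, a gene often overexpressed in carcinomas, read 15.8 FPKM in the control, 24.1 with siRNA1 and 19.4 with siRNA2. HOXC8 read 9.61, 12 and 13.8 FPKM, HOXA6 2.42, 3.38 and 3.73, and HOXD8 2.01, 2.83 and 2.87. None of these 4 passed the test over samples (limma adjusted p from 0.278 to 0.331). HOXA6 rests on an estimated 67 reads in the control, a counting error of 12.3%, and HOXA-AS3 overlaps 21.1% of its exonic bases.

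**Figure D5:**
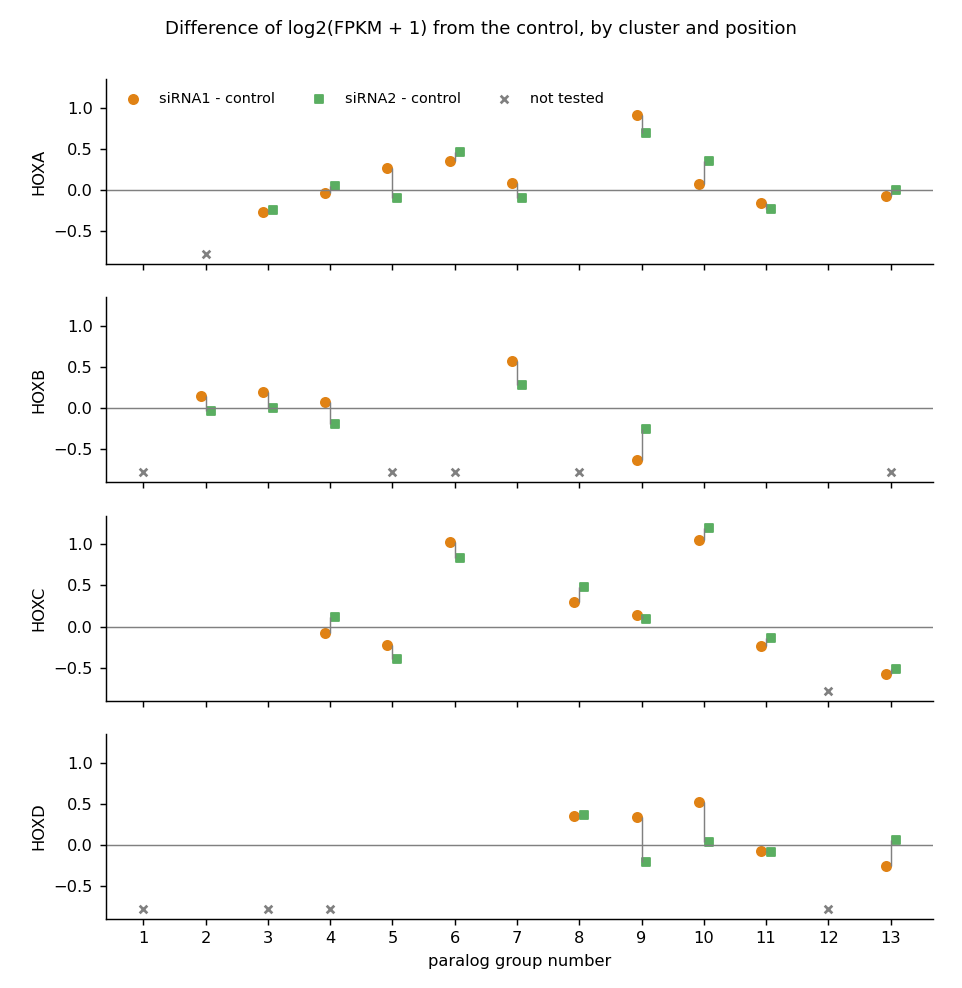
Difference of log2(FPKM + 1) from the control (y axis) for siRNA1 (circles) and siRNA2 (squares) by paralog group number (x axis), 1 panel per cluster; crosses mark genes that were not tested, and genes not reported are left out. HOXC6, HOXC10 and HOXA9 stand apart from the genes on either side of them, and HOXD9 lies above 0 with siRNA1 and below it with siRNA2.

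Along HOXC, HOXC10 lay between HOXC11, at 15.8, 13.3 and 14.3 FPKM in the control, with siRNA1 and with siRNA2, and HOXC9, at 4.70, 5.28 and 5.08. On one side of HOXC6, HOXC5 read 2.57, 2.06 and 1.73 FPKM. On the other side HOXC8 read 9.61, 12 and 13.8 FPKM, above the control with both siRNAs. Among the paralogs of group 9, HOXA9 stood above and HOXB9 below the control with both siRNAs. The HOXC9 columns overlapped the control, and HOXD9 lay above it with siRNA1 and below it with siRNA2. In group 10, HOXC10 rose, HOXA10 was 1.06-fold and 1.29-fold the control, and HOXD10 was 1.48-fold and 1.02-fold. In group 13, HOXC13 stood below the control, while HOXA13 read 1.64, 1.5 and 1.64 FPKM and HOXD13 read 6.67, 5.39 and 6.99. The median log2 difference was 0.004 in groups 1 to 3, 0.09 in groups 4 to 8 and -0.04 in groups 9 to 13.

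Several anterior and middle genes differed little from the control or went opposite ways with the 2 siRNAs. HOXA3, needed for thymus and pharyngeal arch derivatives, read 8.89 FPKM in the control, 7.20 with siRNA1 and 7.37 with siRNA2, with all 4 siRNA columns below both control columns. HOXB2 read 8.56, 9.59 and 8.37 FPKM and HOXB3 read 8.38, 9.77 and 8.38. The HOXB3 locus contains that of HOXB4 over 2875 bases, and the 2 share 70 stretches of 31 bases, so their levels are uncertain. HOXB4, known from blood stem cells, read 6.47, 6.85 and 5.57 FPKM, HOXA4 7.57, 7.38 and 7.86, and HOXA5 5.19, 6.46 and 4.80. Of the remaining posterior genes, HOXA11 read 7.04, 6.23 and 5.84 FPKM, again with all siRNA columns below the control columns. The antisense gene HOXA11-AS overlaps 30.9% of the HOXA11 exonic bases, so its level is uncertain without strand. HOXD11 read 13.7, 12.9 and 12.8 FPKM. None of these 8 genes passed the test (limma adjusted p from 0.476 to 0.986).

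Some low genes fell outside the test. HOXA2, a branchial arch gene, read 0.80 FPKM in the control, 0.46 with siRNA1 and 0.345 with siRNA2, on an estimated 49 reads in the control, a counting error of 14.3%, and its siRNA columns lay below both control columns. HOXB6 read 0.255 FPKM, then 0.065 and 0.085, on an estimated 15 reads in the control. HOXB8, HOXC12 and HOXD4 lay between 0.435 and 0.765 FPKM in all 3 samples, and HOXB5, HOXB13, HOXD1, HOXD3 and HOXD12 at 0.2 FPKM or below.

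The siRNAs differed from each other in part of the HOX genes. The replicate columns of siRNA1 and siRNA2 did not overlap for 21 of 28 genes (75.0%, beside 70.4% of all genes tested), and in the limma fit on replicate columns 14 of 28 (beside 40.4% of all genes) differed at an adjusted p under 0.05. With 1 sample for each siRNA this compares samples, not siRNAs. On the log2(FPKM + 1) scale the widest gaps were those of HOXD9 and HOXD10. HOXD9 read 7.22 ± 0.93 FPKM in the control, 9.38 ± 0.28 with siRNA1 and 6.09 ± 0.58 with siRNA2, which is 1.54-fold higher with siRNA1 than with siRNA2. HOXD10 read 11.4 ± 0.70, 16.8 ± 0.42 and 11.6 ± 0.05 FPKM, 1.45-fold higher with siRNA1. HOXD9 and HOXD10 are neighbors, and both were higher with siRNA1. HOXD11, next to HOXD10, read 12.9 and 12.8 FPKM with siRNA1 and siRNA2. HOXB9, by contrast, was 1.46-fold higher with siRNA2 than with siRNA1.

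Other genes of the HOX system were taken from lists. Over all genes tested, 3.09% passed and the median log2 difference was 0.01. Of 9 HOX cofactors, 8 carried a value and all 8 were tested, with no call and a median log2 difference of 0.06. PBX2 was the highest at 24.7 FPKM, then 30.3 and 27.2. PBX3 read 8.47, 6.49 and 8.07 FPKM and MEIS3 8.43, 8.75 and 11. All 25 chromatin regulators of HOX clusters were tested, with a median of 0.15. Of these, 1 passed as higher, beside 1.42% of all genes tested. It was DOT1L, the histone H3 lysine methyltransferase recruited by KMT2A fusions at HOXA genes. DOT1L went from 8.18 FPKM to 18.9 and 19.2 (log2 difference 1.13, limma adjusted p = 0.0293). The highest of the list were DPY30 at 60.8, 70.8 and 66.6 FPKM, WDR5 at 41.6, 45.8 and 44.2, EZH2 at 28.7, 32.3 and 31.8 and EED at 25.7, 18.5 and 23.1. Of 17 genes of the retinoid pathway, a classic inducer of HOX genes, 13 were tested with no call and a median of -0.16. The retinoic acid binding protein CRABP2 read 19.4 FPKM, then 9.70 and 10.7 (limma adjusted p = 0.0572). Of the retinoic acid synthesis genes, ALDH1A3 read 67.9, 48.3 and 42.3 FPKM and ALDH1A1 23.4, 37.1 and 37, and the receptor gene RARG read 25, 35.5 and 33.1.

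Genes that flank the clusters were compared in the same way. Of 21 listed neighbors, 15 were tested, none was called and the median log2 difference was 0.18, beside 0.01 over all genes tested. The 4 highest were HNRNPA1 near HOXC at 715, 932 and 857 FPKM, ATP5G1 and CBX1 near HOXB at 118, 137 and 138 and at 84.3, 118 and 101, and TAX1BP1 near HOXA at 42.1, 50 and 46.2. The homeobox genes EVX1 and EVX2, at the ends of HOXA and HOXD, stood at 0.02 FPKM or below, and of 6 ParaHox and caudal genes 2 carried a value, GSX2 and PDX1, at 0.03 FPKM or below. Of 24 listed noncoding transcripts and EVX genes, only EVX1 and EVX2 were in the deposited table. The listed noncoding transcripts thus had no values to set beside the HOX genes. Part of the squamous markers moved in the same samples: 5 of 7 (KRT5, KRT6A, KRT14, KRT17 and SFN) fell in limma, beside 1.67% of all genes. SOX2, at 212, 272 and 277 FPKM, and TP63, at 92.1, 90.6 and 79.4, did not pass the test. Summed over all 7, the level went from 10400 FPKM to 4180 and 4040. The part of these markers in the HOX values was not tested.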

How the data were processed

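RNA-seq of 1 negative control and 2 DLX5 siRNA samples of KYSE140 cells was analysed from a table of genes. The deposited values are FPKM per the file headers, with a pair of replicate columns and a mean for every sample; the authors' log2 fold changes and DEGseq q-values are also in the deposited table. Listed in the submitters' processing notes, without roles, are hg19, RSEM 1.2.12, HISAT2 2.0.4, DESeq 3.4 and Bowtie2 2.2.5. FPKM is relative, so a gene that takes more reads lowers others.

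Of 19280 lines, 14 without a gene ID and 2047 genes without a value were left out. Because they share a heading, 2 FPKM columns were left unused; column 1 of a siRNA sample was taken as 2 times its mean minus column 2. The test was limma-trend (limma 3.58.1, R 4.3.3) of log2(FPKM + 1) over the 12078 genes that reach 1 FPKM in any sample, Benjamini-Hochberg 0.05; limma was tested on simulated data. Fold changes on this scale understate low genes; ratios are of FPKM. P-values rest on the spread between 2 siRNA samples, weighed with the trend of that spread over all genes. The 2 samples had different siRNAs, so this spread may hold differences between the siRNAs as well as technical ones. The fit had 1 residual and 5.16 prior degrees of freedom, so the trend carried most of the weight. Depth was estimated from single-transcript genes of 400 to 1000 bases; at other depths 28.5% to 30.2% (medians) of values were near whole. Named were all members, listed genes past the test and up to 4 listed genes with the highest control FPKM; some of these are counted but not reported by name here. The members, lists and tests were chosen with earlier results of these data known. Alternatives were 2 other pseudocounts, other filters, 2 normalizations, no trend, leaving out each siRNA sample and replicate columns as values.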

Additional observations from a re-analysis of the deposited data

How the results depend on the processing

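The count of HOX genes past the test stood at 1 (HOXC10) under 4 alternatives in limma. It was 1 of 28, beside 290 of 12078 genes, with a pseudocount of 0.1, and 1 beside 349 with a pseudocount of 0.5. For genes averaging 5 FPKM or more it was 1 of 22 beside 294 of 8853, and without a trend 1 beside 314. Without the filter on low FPKM it was 0 of 38 HOX genes and 0 of 17219 genes in limma (7 and 2444 at an unadjusted p under 0.05). Quantile normalization gave 0 of 28 HOX genes (6 at an unadjusted p under 0.05) and 22 of all genes. Upper quartile scaling gave 2 of 28 HOX genes, HOXC10 and HOXC6, beside 478 of 12078 genes. With replicate columns as separate values the counts were 9 HOX genes and 4885 genes. By size alone, rules added after seeing the data, 3 HOX genes and 948 genes were at least 1.5-fold changed with both siRNAs, and 1 and 243 at least 2-fold. The cause of these shifts was not tested. Differences of single HOX genes were compared under 2 other pseudocounts, no filter, 2 normalizations and replicate columns as values, which all keep the 3 samples. Among these differences, 155 kept their direction and side of the threshold, 9 newly passed it, 2 lost it and 2 changed sign. Those that newly passed were HOXC6 with upper quartile scaling and otherwise differences in the fit on replicate columns, whose spread is that within samples. Both sign changes were near 0: HOXA4 was at -0.006 with upper quartile scaling and HOXA13 at 0.015 after quantile normalization. Leaving out a siRNA sample changed the sign of 11 of 28 HOX genes, the 11 that lay on opposite sides of the control with the 2 siRNAs; HOXD9 went from 0.06 to -0.214 without siRNA1. The median of the HOX genes ranged from 0.017 to 0.084 when a siRNA sample was left out. No paired analysis was possible because the control is a single sample whose label carries no replicate number. Members under 1 FPKM rest on at most 49 estimated reads in the control, where counting error is larger than in the tested genes, and they were not tested.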

Other observations

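The authors' deposited table, which compares samples pairwise, gives further values for HOX genes. For HOXD9 the authors' deposited table lists log2 values of 0.38 (siRNA1) and -0.25 (siRNA2), and for HOXD10 0.56 and 0.03. For the low gene HOXB6 the authors' deposited table lists -1.92 and -1.61, and for HOXA2 -0.80 and -1.22.

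A pair of adjacent HOXB genes differed widely in level: HOXB7 read 15.8 FPKM in the control against 0.255 FPKM for HOXB6, and their coding transcripts share 21 stretches of 31 bases. HOXA6 and HOXA7 share 16 such stretches, and HOXA7 read 33.2 FPKM against 2.42 FPKM for HOXA6. HOXB3 and HOXD3 share 32, with HOXB3 at 8.38 FPKM and HOXD3 at 0.11 FPKM. HOXD11 held TAATT at 81 and 80 bases before its start, which overlap, and TGATNNAT at 67 bases.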
